A study of Mus musculus with 16 samples.

Results

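The genes described here serve antigen presentation by major histocompatibility complex (MHC) class II in mouse skin and hair follicle stem cells (HFSC). They are the invariant chain gene Cd74, the chain genes H2-Aa, H2-Ab1 and H2-Eb1, the peptide-editor genes H2-DMa and H2-DMb1, and the transactivator gene Ciita. All 7 have a row in both deposited tables, among 55357 gene rows of skin and 56953 of HFSC. The members were chosen on measured values: the class II genes were selected on their higher values in eKO than in control HFSC, and Ciita and the peptide-editor genes were added beside them as a comparison. Their HFSC values are therefore given as a description without a test. Whole skin did not enter the choice, and there the members were tested.

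The series asks how G-protein-coupled receptor kinase 2, encoded by Grk2, takes part in hair follicle homeostasis. It holds poly-A RNA sequencing of back skin from control and GRK2 eKO mice (5 libraries each), all C57BL/6 and aged 8 months, and RNA sequencing of sorted HFSC, the CD34+ α6-integrin+ cells of the follicle bulge, in 3 control and 3 eKO libraries of the same strain. The HFSC labels give an age of 18 months and the series' design text gives 8 months, so that age is not settled. The labels do not spell out eKO, and the Cre driver, the sex and any pooling of animals are not given in the sources used here, so the tests measure the spread between these libraries. Values are the authors' normalised read counts (gene reads divided by a size factor of the library), and the recovered reads of a library numbered 8.21 to 16.4 M in skin and 6.43 to 9.39 M in HFSC (M, mega). Grk2 itself was at 1298 ± 144 (SD, n = 5) in control and 1110.45 ± 93.8 (n = 5) in eKO skin (limma adjusted p = 0.343), and at 135 ± 12.04 (n = 3) in control and 114 ± 8.68 (n = 3) in eKO HFSC (limma adjusted p = 0.501). The labels and sources used here do not say which part of the gene is deleted, so a gene total may not check them.

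MHC class II molecules display peptides from the endosomes to CD4+ T cells. The invariant chain occupies the groove of new class II dimers and guides them to the endosomes, proteases trim it there, and the DM heterodimer exchanges its last fragment for an antigenic peptide. Ciita binds no DNA itself and acts on a promoter module, the X and Y boxes, that the class II genes, Cd74 and the DM genes have in common. Professional antigen-presenting cells such as dendritic cells, Langerhans cells, macrophages and B cells carry class II constantly, whereas epithelial cells, keratinocytes included, and endothelial cells are known to gain it under interferon gamma.

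Of the 7 members, 4 were searched in the RefSeq promoter table (GRCm38.p6), namely H2-Aa, H2-Eb1, H2-DMa and H2-DMb1. Cd74, H2-Ab1 and Ciita were not searched. The windows of 3 members held both boxes in order, and they are printed because this module is what ties the class II genes to Ciita. Each line runs 5′ to 3′ on the strand of the gene, and the capitals mark first the X-box letters GNAACT and then the Y-box core GATTGG.
H2-Aa: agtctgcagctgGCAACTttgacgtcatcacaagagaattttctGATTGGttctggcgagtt
H2-Eb1: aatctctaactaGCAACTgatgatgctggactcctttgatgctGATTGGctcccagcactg
H2-DMb1: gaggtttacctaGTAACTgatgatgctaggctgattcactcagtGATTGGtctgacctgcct
The H2-Aa stretch is chr17:34287855-34287916 on the minus strand, the H2-Eb1 stretch is chr17:34305764-34305824 on the plus strand, and the H2-DMb1 stretch is chr17:34153085-34153146 on the plus strand. All lie upstream of the listed start, where the Y box ends 43, 54 and 56 bases before it. The spacing between the boxes was 26 bases in H2-Aa and H2-DMb1 and 25 in H2-Eb1. Of 32851 promoter windows of 250 bases before a start, searched on both strands, 37.3% held GNAACT and 14.6% held GATTGG, and 97 (0.295%) held GNAACT followed by GATTGG on the same strand with 10 to 30 bases between them. Among the other class II genes, H2-Eb2 also held the ordered pair, while the windows of H2-DMa (at both of its listed starts), H2-DMb2, H2-Oa and H2-Ob did not hold these letters in this order. A match is a description of the letters and was not tied to any measurement here.

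In HFSC, the invariant chain and the 3 class II chain genes were several-fold higher in every eKO library than in any control library, the DM genes differed less, and Ciita had 1 read in all. Cd74 (ENSMUSG00000024610) was at 121.7, 157.8 and 138.0 normalised reads in the control libraries and at 1442, 787 and 996 in the eKO libraries. The lowest eKO library was thus well above the highest control library, and eKO replicate 1 was the highest. The mean was 139 ± 18.1 (SD, n = 3) in control and 1075 ± 335 (n = 3) in eKO, a log2 fold change of 2.90 ± 0.21 (SE) on the log2(value + 1) scale. In bulk libraries, more cells of a type and more RNA per cell cannot be told apart.

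The chain genes were higher in eKO by smaller ratios. H2-Ab1 (ENSMUSG00000073421), the beta chain of the I-A molecule, was at 98.7, 113.6 and 128.0 in control and at 652, 402 and 379 in eKO libraries, which differ by 2.03 ± 0.23 (SE) on the log2 scale. H2-Aa (ENSMUSG00000036594), its alpha chain, was at 23.9, 43.1 and 25.99 in control and at 124.3, 168.8 and 112.9 in eKO, a log2 fold change of 2.12 ± 0.35. H2-Eb1 (ENSMUSG00000060586), the beta chain of the I-E molecule, was at 33.9, 30.5 and 29.0 in control and at 127.4, 120.6 and 116.1 in eKO, a log2 fold change of 1.93 ± 0.31. No control library of these genes reached an eKO library, and the spread among the eKO libraries was narrowest for H2-Eb1 and widest for Cd74 and H2-Ab1. The row of the I-E alpha chain (H2-Ea) carries the pseudogene symbol H2-Ea-ps in the name list and was at 0 in all 16 libraries. Rows of genes that nearly every cell uses, such as B2m, were also listed at 0 throughout. A zero alone is therefore not read as absence of expression.

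The peptide editors differed far less. H2-DMb1 (ENSMUSG00000079547), the DM beta chain, was at 127.7, 104.1 and 139.0 in control and at 213.8, 169.9 and 154.5 in eKO HFSC, which did not overlap and gave a log2 fold change of 0.53 ± 0.23 (SE). H2-DMa (ENSMUSG00000037649), the DM alpha chain, was at 50.9, 66.3 and 86.0 in control and at 156.9, 72.3 and 68.2 in eKO. Here the groups overlapped and only eKO replicate 1 lay above the controls: the log2 fold change was 0.47 ± 0.37 with that library and 0.08 without it.

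Ciita (ENSMUSG00000022504) had 1 read in control replicate 2 and none in the other 5 HFSC libraries, so it passed no filter and has no fold change. In all, 6 of the 7 members passed the filter on low values, and in 5 of the 7 every eKO library was above every control library. Over all genes tested in HFSC, 18.9% had every eKO library above every control library, and since the HFSC values chose the members, nothing is read from their count. In the order of their log2 fold changes Cd74 came first, then the 3 chain genes, then the DM genes, and the neighbours H2-Aa, H2-Ab1 and H2-Eb1 did not differ from each other beyond their standard errors.

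**Figure D1:**
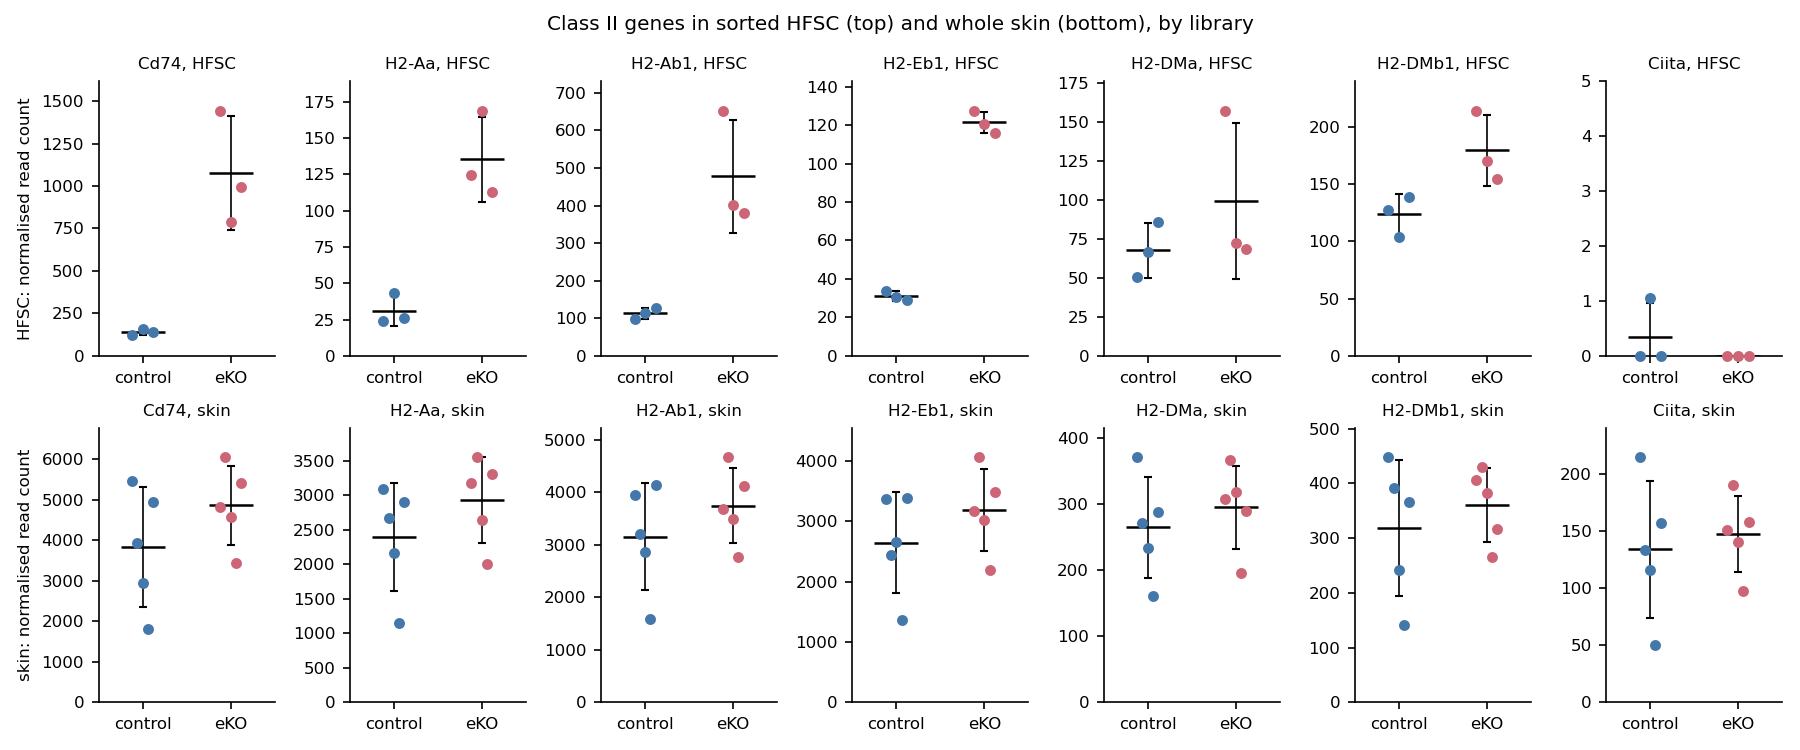
Normalised read counts of the 7 members by library, in HFSC (top, 3 libraries per group) and skin (bottom, 5 per group), each panel on its own linear axis from 0. Points are libraries, bars the mean and whiskers the SD; in HFSC Cd74, H2-Aa, H2-Ab1, H2-Eb1 and H2-DMb1 do not overlap between groups, whereas all 7 overlap in skin.

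The make-up of the class II reads differed between groups as well. Of the reads of Cd74, H2-Aa, H2-Ab1 and H2-Eb1 together, Cd74 held 43.0% to 45.7% in the control and 53.2% to 62.1% in the eKO HFSC libraries, against 27.6% to 34.4% in control and 32.5% to 33.3% in eKO skin. H2-Eb1 held 8.84% to 12.2% in control HFSC, 5.43% to 8.15% in eKO HFSC, and 19.9% to 25.1% over the 10 skin libraries. H2-Ab1 held 32.9% to 39.9% in control HFSC and 23.6% to 27.8% in eKO HFSC. These are shares of reads not divided by transcript length, so they compare libraries and not the levels of the genes. The share of Cd74 was thus higher in each HFSC library than in each skin library, and higher in each eKO than in each control HFSC library. The HFSC shares are built from the values that chose the members, so they are a description and nothing further is read from them.

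**Figure D2:**
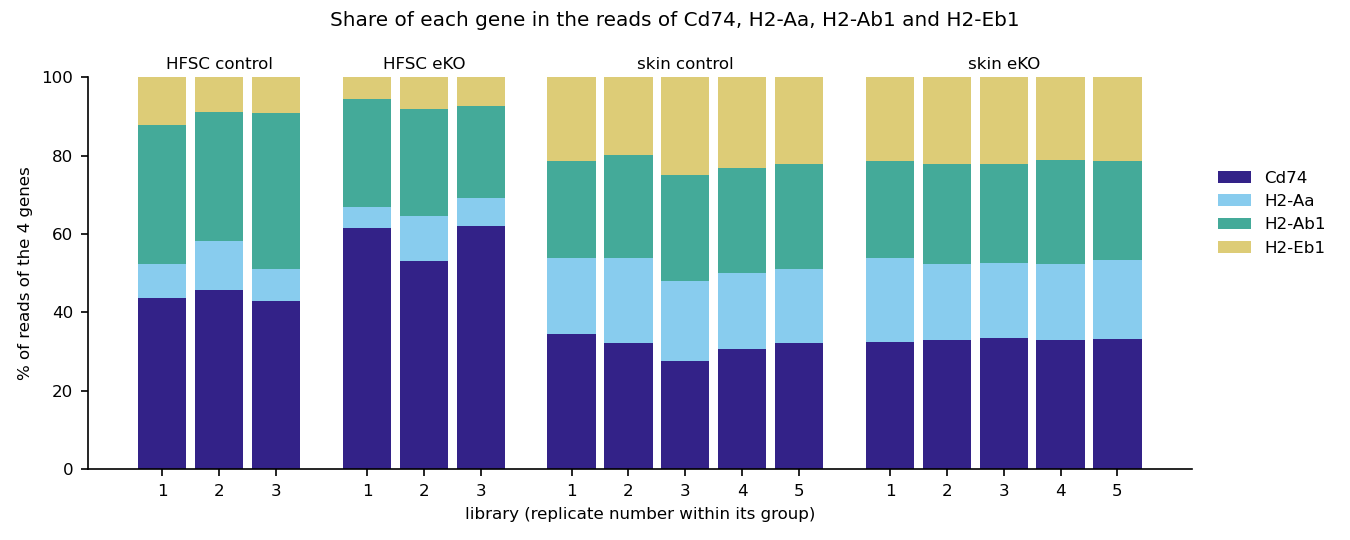
Share of each gene, in percent, in the summed reads of Cd74, H2-Aa, H2-Ab1 and H2-Eb1, 1 bar per library. Skin bars are alike (Cd74 from 27.6% to 34.4%), while the Cd74 share is 43.0% to 45.7% in control HFSC and 53.2% to 62.1% in eKO HFSC.

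Per mega (M) recovered reads, Cd74 was scarcer in each control HFSC library than in any skin library. Of the eKO HFSC libraries only replicate 1 (203) reached the range of control skin, above control skin replicate 4 (168) alone. The eKO HFSC replicates 2 and 3 (112 and 142) lay below every skin library. Cd74 ran from 18.2 to 23.3 reads per M in control HFSC, from 112 to 203 in eKO HFSC, from 168 to 460 in control skin and from 301 to 513 in eKO skin. The DM genes were closer between tissues: H2-DMb1 ran from 15.4 to 20.7 reads per M in control HFSC, from 22.02 to 30.04 in eKO HFSC and from 13.1 to 37.6 over the 10 skin libraries. H2-DMb1 reads per 1000 Cd74 reads were accordingly 660 to 1049 in control HFSC and 148 to 216 in eKO HFSC, beside 58.3 to 99.6 in skin. H2-DMa followed the same order, with 418 to 623 in control HFSC, 68.4 to 109 in eKO HFSC and 53.5 to 88.7 in skin. Neither DM gene had a lower mean in eKO HFSC, so the lower ratios there follow from the Cd74 values that chose the members. The tissues were normalised separately and prepared differently, so these levels are set side by side only.

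Ciita set the tissues apart. Skin held 27.7 to 39.4 Ciita reads per 1000 Cd74 reads in the control and 28.3 to 31.5 in the eKO libraries, so the ratio was nearly constant there. In the 3 eKO HFSC libraries together, 0 Ciita reads stood beside 3555 Cd74 reads, which allows up to 0.844 per 1000 at the limit of 3 reads. In control HFSC, 1 Ciita read stood beside 410 Cd74 reads, where the limit of 3 reads is 7.32 per 1000. These ratios are a description, because the Cd74 reads of eKO HFSC are among the values that chose the members and the control HFSC ratio rests on 1 read. The limit accounts for counting error alone, because these reads have no molecular identifiers.

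Ptprc encodes the CD45 antigen of all nucleated blood cells. Ptprc was at 19.9, 14.7 and 9.998 in the control and at 28.1, 18.6 and 3.2 in the eKO HFSC libraries, and the groups overlapped. Per 1000 Cd74 reads, Ptprc had 72.5 to 164 reads in control HFSC, 99.98 to 146 in control skin and 91.6 to 145 in eKO skin, but 3.21 to 23.7 in eKO HFSC. Since Ptprc itself overlapped between the HFSC groups, the lower ratio in eKO HFSC follows from the Cd74 values that chose the members, and nothing further is read from it. Pecam1, an adhesion molecule of endothelium and of some leukocytes, had 46.7, 57.4 and 246 reads per 1000 Cd74 reads in control HFSC, 201 to 286 in eKO HFSC and 219 to 621 in skin. A source of the class II reads was not tested.

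**Figure D3:**
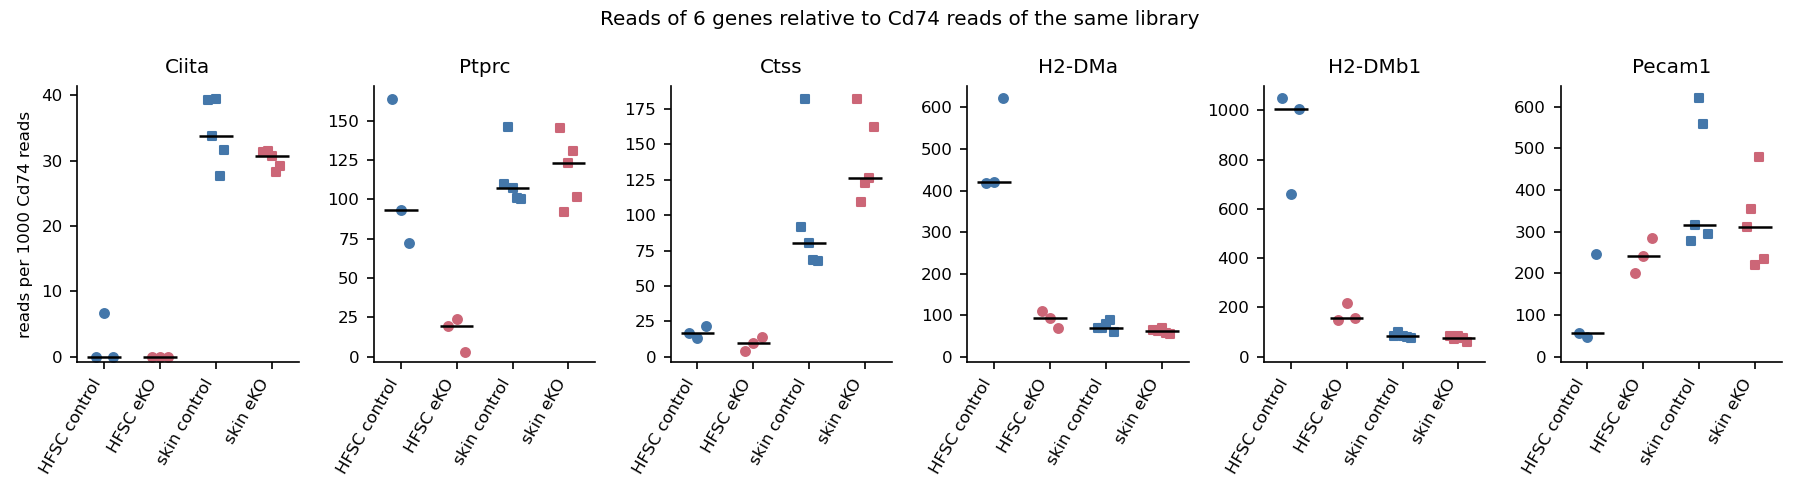
Reads of Ciita, Ptprc, Ctss, H2-DMa, H2-DMb1 and Pecam1 per 1000 Cd74 reads of the same library, each on a linear axis, with a line at the group median. Circles are HFSC and squares are skin; in eKO HFSC, Ciita is at 0 and Ptprc at 3.21 to 23.7, whereas skin holds 27.7 to 39.4 and 91.6 to 146.

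The marker lists show which other cells the sorted libraries could hold. Of 42 leukocyte marker genes in HFSC, 10 passed the filter, none rose, and Lyz2 (lysozyme of macrophages and monocytes) fell, from 44.2 to 50.0 in control to 1.1 to 19.7 in eKO (log2 fold change -2.50, limma adjusted p = 0.0369). The call of Lyz2 was lost in 8 of 14 alternatives, among them both edgeR fits and the fits without control replicate 1, 2 or 3 or eKO replicate 3, where the list count is 0. The median log2 fold change of the 10 genes was -0.22, beside -0.03 over all genes tested. Of all genes tested in HFSC, 10.7% were called higher and 19.4% in either direction, so little is read from 1 call among 10.

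By sums over whole lists, the 10 pan-leukocyte genes held 87.3 to 106 in control and 89.5 to 164 in eKO HFSC, with Rac2 and Was at 0 in all eKO libraries (at most 3.2 and 5.3 in control). Ptprc, Laptm5 and Coro1a, the first markers of that list, overlapped between the groups, while Arhgdib did not overlap but did not pass (2.0 to 6.3 against 15.2 to 22.4, a log2 fold change of 1.94 with an adjusted p of 0.0931 in limma). Of the 42 leukocyte markers 4 were higher in every eKO library than in any control library, beside 18.9% of all tested genes: Arhgdib and, below the filter, Cd53 (1.0 to 4.0 against 9.6 to 20.5), Itgb2 (0 to 2.1 against 3.3 to 14.9) and the macrophage receptor gene Csf1r (3.0 to 5.3 against 5.33 to 19.7). Another 4 were lower in every eKO library: Lyz2, Zbtb46 and, below the filter, Rac2 and C1qa. The share of all genes lower in every eKO library was not computed. The 18.9% covers only genes that passed the filter, so it is no like comparison and nothing is read from these counts. The 19 myeloid and dendritic genes summed to 155 to 206 in control and 107 to 154 in eKO, where 9 of them, Tyrobp, Adgre1, Itgam, Xcr1 and Clec9a among them, were at 0 in each library. In control HFSC 6 of the 19 were at 0 in each library. Itgam, Xcr1 and Clec9a were at 0 in both groups, and Itgam in skin too. Tyrobp and Adgre1 had reads in control replicate 3 alone (4.0 and 2.0), so these zeros are not read as a loss. Of the Langerhans markers, Cd207 (langerin) was at 4.0, 3.2 and 2.0 in control and at 6.8, 0 and 5.3 in eKO, and the list without Mfge8, which by itself held 849 to 964 in these libraries, summed to 7.98 to 15.8 and 12.8 to 32.6. The 11 lymphoid genes summed to 8.998 to 13.7 and 10.7 to 21.99, and Trdc, Cd79b and Ms4a1 were listed at 0 throughout.

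Most endothelial markers were higher in eKO than in control HFSC. The 11 endothelial genes summed to 54.9 to 70.5 in control and 1203 to 1366 in eKO HFSC, and all 8 that passed the filter rose, beside 10.7% of all tested genes, with a median log2 fold change of 5.21. Pecam1 was at 7.0, 7.4 and 34.0 in control and at 290, 191 and 284 in eKO, Plvap, a diaphragm protein of fenestrated capillaries, at 5.3 to 9.0 and 434 to 532, and Cdh5 (VE-cadherin) at 0 to 9.0 and 73.4 to 154. Of these markers, Vwf and Emcn were at 0 in each control library, Cldn5 was listed at 0 in all 6 libraries, and the calls of Kdr and Tek were lost in 2 and 6 of 14 alternatives. Plvap, Cdh5, Vwf, Kdr, Esam and Emcn passed the filter only through the eKO libraries, so the filter itself favoured a rise. The 10.7% of all tested genes is therefore no like comparison, and nothing is read from all 8 rising. The part of the endothelial markers in the class II result was not tested. Fibroblast, melanocyte and muscle markers gave 1 call among 6 tested genes, Dcn (decorin), at 0 to 3.0 in control and 19.7 to 28.8 in eKO. That is near the 19.4% of all tested genes called in either direction, and Dcn passed the filter only through the eKO libraries.

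The sort and bulge markers were present in both groups, and some of them changed. Of 10 bulge and basal genes 3 rose (Itga6, Krt5 and Krt14), 1 fell (Lgr5), and 6 had a negative log2 fold change, with a median of -0.10. Over all genes tested in HFSC, 19.4% were called in either direction. Krt14, a basal keratin, had a log2 fold change of 1.29 (adjusted p = 1.62e-07 in limma), and Lgr5, a stem cell receptor gene, one of -0.94 (adjusted p = 2.85e-06 in limma). Cd34 was at 1157 to 1323 in control and 1160 to 1222 in eKO HFSC (limma adjusted p = 0.638), and Krt15, a keratin of the bulge, at 112171 to 116724 and 95754 to 119551. The 10 bulge and basal genes summed to 197520 to 201326 in control and 199689 to 232103 in eKO. The groups differed elsewhere too: Y-linked genes summed to 2340 to 2476 in control but 704 to 831 in eKO HFSC. Of 17 matched hair matrix and inner root sheath genes 9 passed the filter, which a gene low in control can pass through the eKO libraries alone. Of these 9, 8 rose in eKO, beside 10.7% of all tested genes. That share may be no like comparison, so nothing is read from the count. Whether these differences bear on the class II genes was not tested.

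Genes that serve class II besides the members were examined as a group of 22: other chains, endosomal processing and transcription factors. In HFSC 15 passed the filter, 3 rose and 1 fell, beside 19.4% of all tested genes called in either direction, and the median log2 fold change was 0.12. Ctsc, cathepsin C, a dipeptidyl peptidase that activates serine proteases of granules, was at 204, 170 and 161 in control and 1192, 1327 and 1573 in eKO (log2 fold change 2.92 ± 0.15, limma adjusted p = 8.52e-08). Lgmn, the asparaginyl endopeptidase that can start invariant chain cleavage, was at 135, 176 and 151 against 385, 263 and 251 (log2 fold change 0.94, limma adjusted p = 0.00898). Ctsb, cathepsin B, was at 5538 to 5801 against 9422 to 10299 (log2 fold change 0.78, limma adjusted p = 1.02e-05).

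The protease most closely tied to invariant chain trimming in professional cells, Ctss (cathepsin S), stayed near the floor in HFSC. It was at 2.0, 2.1 and 3.0 in control and at 5.3, 7.7 and 13.8 in eKO, which did not overlap, but it did not pass the filter. Ctsl, which takes that role in cortical thymic epithelium, was at 272 ± 14.7 (SD, n = 3) in control and 223 ± 20.1 in eKO (log2 fold change -0.29, limma adjusted p = 0.270). Per 1000 Cd74 reads, Ctss had 13.3 to 21.7 reads in control HFSC and 3.68 to 13.9 in eKO HFSC, against 67.4 to 182 over the skin libraries. Since Ctss itself was not lower in eKO HFSC, the lower ratio there follows from the Cd74 values that chose the members. Ctsd, Ctsh and Marchf8, the last a ubiquitin ligase, gave log2 fold changes of 0.25, -0.09 and 0.07 in HFSC, and Ifi30, the endosomal thiol reductase, gave 1.06 (14.3 ± 7.65 against 27.8 ± 2.44, limma adjusted p = 0.231).

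Of the factors that assemble on the X and Y boxes, Nfyc, a subunit of the Y-box binding NF-Y complex, alone passed the test. That is 1 of 7 factors tested, beside 19.4% of all tested genes called in either direction. Nfyc fell from 819, 721 and 540 in control to 386, 352 and 400 in eKO HFSC (log2 fold change -0.85 ± 0.16, limma adjusted p = 0.00293). The other NF-Y subunits Nfya and Nfyb gave -0.24 and 0.17 and did not pass. Rfx5, the DNA-binding subunit of the X-box complex, was at 40.9, 82.0 and 101.98 against 149.4, 152.4 and 103.3, a difference of 0.92 on the log2 scale (limma adjusted p = 0.0827). Its partners Rfxap and Rfxank gave -0.65 and 0.12, and Creb1 gave -0.33, none past the threshold. Among the 7 factors the values thus pointed both ways, 3 positive and 4 negative.

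The other class II chain rows had few reads in HFSC. H2-DMb2, a near-identical copy of H2-DMb1, was at 1.0, 1.1 and 0 in control and at 6.8, 7.7 and 5.3 in eKO. H2-Ob reached 3.8, and H2-Oa and H2-Eb2 were listed at 0. How reads shared between such copies were assigned is not given in the sources used here, so the split between H2-DMb1 and H2-DMb2 is uncertain.

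Class I genes are present on nearly all nucleated cells and share the interferon response with class II. In HFSC, 14 of 20 class I pathway genes passed the filter, 6 rose and none fell, beside 10.7% of all tested genes higher in eKO, with a median log2 fold change of 0.56. H2-D1, a classical class I heavy chain, was at 6147, 6156 and 6650 in control and at 15952, 13653 and 13491 in eKO (log2 fold change 1.18, limma adjusted p = 7.90e-07). Nlrc5, the class I counterpart of Ciita, was at 296, 327 and 290 against 423, 623 and 573 (log2 fold change 0.81, limma adjusted p = 0.00516), and Tap1, a subunit of the peptide transporter, at 747, 686 and 642 against 1227, 1296 and 1066 (log2 fold change 0.79, limma adjusted p = 6.07e-04). H2-K1, Tap2 and Tapbp were the other calls, and B2m, H2-T23, Psmb10 and Tapbpl were listed at 0 in all 16 libraries. Under a required change of at least 1.5-fold H2-D1 alone passed, and Tap2 did not pass without control replicate 1 or 3. Nlrc5 thus held 290 to 623 in the same libraries in which Ciita had at most 1 read.

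Interferon gamma itself was listed at 0 in HFSC. Of 20 genes of its axis 16 passed the filter, 7 rose and none fell, beside 10.7% of all tested genes higher in eKO, with a median log2 fold change of 0.42. Iigp1, an immunity-related GTPase, was at 52.9, 65.2 and 36.0 in control and at 329, 369 and 328 in eKO (log2 fold change 2.75, limma adjusted p = 1.28e-05). Cxcl9, a T cell attracting chemokine, was at 33.9, 16.8 and 29.99 against 58.4, 110.7 and 67.1 (log2 fold change 1.52, limma adjusted p = 0.0230), and Gbp3, a guanylate-binding protein, at 18.0, 14.7 and 17.0 against 36.4, 39.5 and 69.2 (log2 fold change 1.44, limma adjusted p = 0.0454). Irf1, an interferon-induced transcription factor, gave 0.33 and did not pass. The count was 4 without control replicate 2 and 4 without eKO replicate 2, and 1 (Iigp1) under a required 1.5-fold change, while Gbp3 was lost in 9 and Jak1 in 6 of 14 alternatives. Cxcl9 did not pass without control replicate 2 or eKO replicate 2, nor Gbp2 without control replicate 1.

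Costimulatory genes, whose products a presenting cell needs to activate T cells, were sparse in HFSC. Only 4 of 7 passed the filter, and Icosl rose from 24.9, 22.1 and 19.996 to 68.2, 73.4 and 82.0 (log2 fold change 1.70, limma adjusted p = 0.00652). Icosl was the only call of this list, beside 10.7% of all tested genes higher in eKO. Cd274 (PD-L1), an inhibitory ligand, was at 25.9, 7.4 and 6.0 against 43.97, 41.7 and 29.8 (log2 fold change 1.74, limma adjusted p = 0.0624). Cd40 was listed at 0 and Cd86 did not exceed 6.0 in any library.

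**Figure D4:**
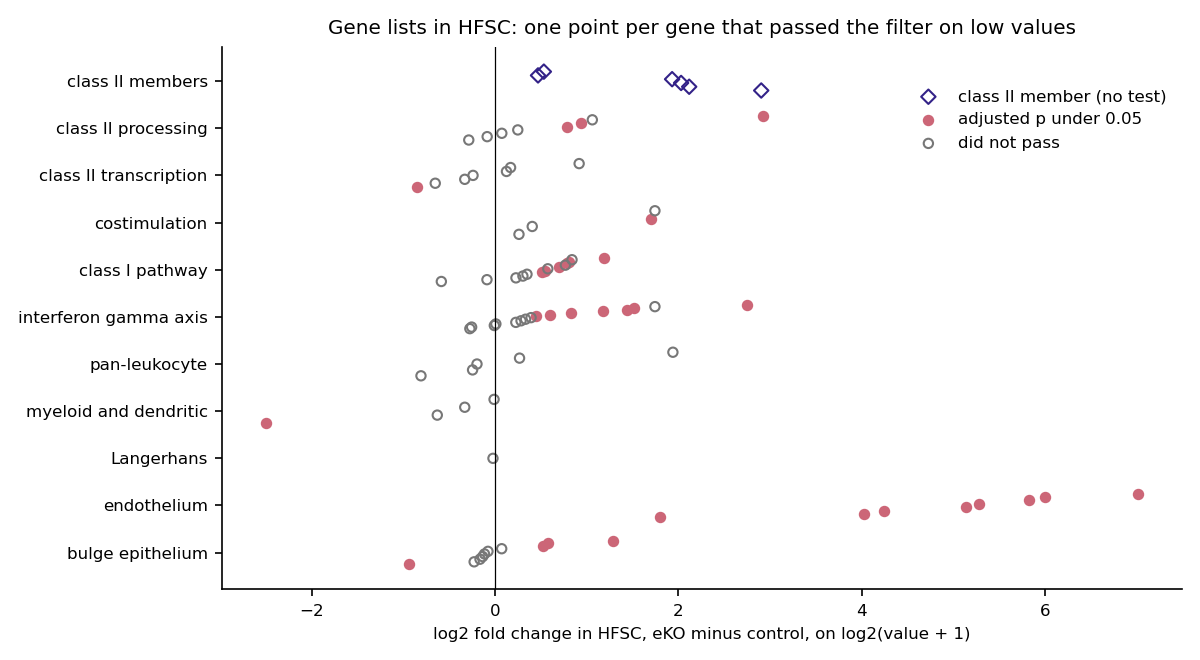
Log2 fold changes in HFSC, eKO minus control, for the genes of each list that passed the filter on low values, 1 point per gene. Filled points passed a limma adjusted p of 0.05, open circles did not, and the members (diamonds) carry no test; endothelial genes lie furthest to the right, and most leukocyte points lie at or below 0.

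In whole skin, where the members were tested, none of the 7 passed the test. The count was 0 of 7 by limma at an adjusted p of 0.05, beside 0.374% of all genes tested in skin, 0 of 7 at an unadjusted p under 0.05, and 0 by edgeR and by DESeq2. Cd74 was at 5469.8, 3936.7, 2938.6, 1821.3 and 4952.8 in control and at 4828.8, 6041.0, 4576.3, 3436.6 and 5415.4 in eKO skin. The groups overlapped widely, with control replicate 4 the lowest of the 10 libraries and eKO replicate 2 the highest. The log2 fold change was 0.42 ± 0.28 (SE, limma adjusted p = 0.544).

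The chain genes behaved likewise. H2-Aa was at 2395 ± 777 (SD, n = 5) in control and 2934 ± 621 (n = 5) in eKO skin, H2-Ab1 at 3153 ± 1016 and 3747 ± 709, and H2-Eb1 at 2648 ± 831 and 3187 ± 683. Their log2 fold changes were 0.34, 0.30 and 0.31, with limma adjusted p of 0.606, 0.630 and 0.624. The DM genes gave 0.18 for H2-DMa (265 ± 76.6 against 295 ± 62.5) and 0.27 for H2-DMb1 (318 ± 124 against 360 ± 67.8), with limma adjusted p of 0.773 and 0.725. With standard errors of 0.23 to 0.34 over the 7 members, a miss of the threshold does not show equal levels.

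Ciita was read in each skin library. It was at 214.7, 133.2, 115.9, 50.4 and 156.8 in control and at 151.4, 190.4, 140.6, 97.4 and 157.9 in eKO, with control replicates 4 and 1 at both ends of the range, and the change was 0.25 on the log2 scale (limma adjusted p = 0.789). Without control replicate 4 that value turned to -0.07, and those of the other members fell to between 0.01 and 0.18.

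The members rose and fell together from one skin library to the next. On log2 values centred within each group, each member's correlation with the mean of the other members was 0.928 for H2-DMb1, 0.948 for H2-DMa, 0.957 to 0.983 for H2-Eb1, H2-Ab1, H2-Aa and Cd74, and 0.989 for Ciita, over 10 libraries. Control replicate 4 ranked lowest for all 7 members. This library also had the highest mean log2 value of the hair matrix list (12.5, where the 10 libraries span 2.00 to 12.5) and the lowest pan-leukocyte sum (1081, where the other skin libraries reached up to 5040). The points share their library, so a low share of class II reads and a high share of hair matrix reads are not separate measurements, and their relation was not tested. With the hair matrix list as a covariate, 0 of 7 members passed.

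The class II chains were also set against the leukocyte level in skin. Over the 10 libraries the mean log2 of Cd74, H2-Aa, H2-Ab1 and H2-Eb1 correlated with that of the 10 pan-leukocyte genes with Pearson r = 0.807 (permutation p = 0.0182, 0.0273 after Benjamini-Hochberg adjustment over 3 relations) and Spearman rho = 0.406 (permutation p = 0.249, adjusted 0.350). Centred within groups, r was 0.769 (permutation p = 0.0132, adjusted 0.0235) and rho 0.794 (permutation p = 0.00870, adjusted 0.0261). These permutations ran over all 10 libraries and not within groups. The centred relation was not repeated with libraries left out, so whether it rests on a few of them is not known. Without control replicates 3 and 4, the libraries farthest from the median leukocyte level, the uncentred r was -0.13 over a narrower range of levels, so that r rests on this pair; without control replicate 4 alone it was 0.377 (permutation p = 0.336), and without control replicate 3 alone 0.809 (permutation p = 0.0676). With the myeloid and dendritic list, r was 0.791 (permutation p = 0.0173, adjusted 0.0273), rho 0.333 (permutation p = 0.350, adjusted 0.350), and r was -0.13 without the same pair. With the endothelial list, r was 0.561 (permutation p = 0.0846, adjusted 0.0846), rho 0.527 (permutation p = 0.123, adjusted 0.350), and r was 0.598 without eKO replicates 2 and 3.

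**Figure D5:**
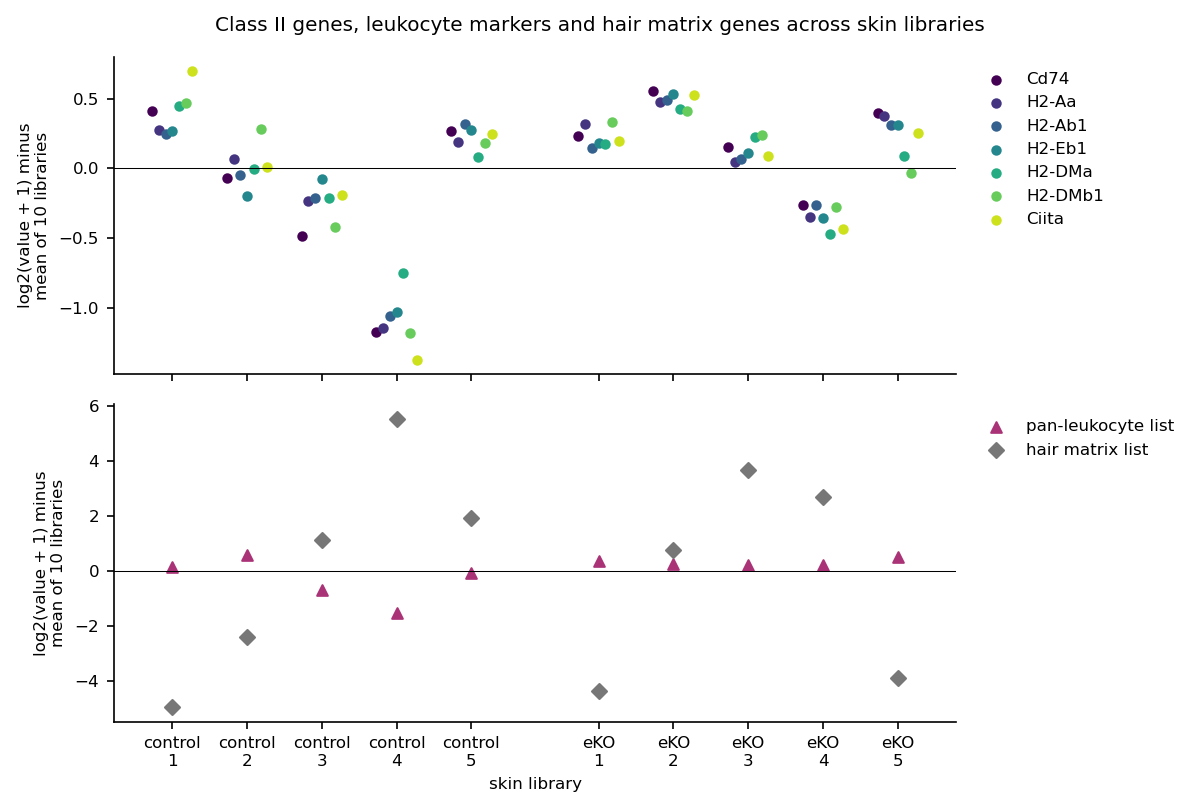
Log2(value + 1) of each member (top) and mean log2 value of the pan-leukocyte and hair matrix lists (bottom) in the 10 skin libraries, each minus its mean over the 10. The 7 members lie close together within a library, and control replicate 4 is lowest for all members and for the leukocyte list and highest for the hair matrix list.

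Other tested genes were ranked by their likeness to the chain genes over the skin libraries. The high r of the first 8 follows from that ranking and was not set against chance, so nothing is read from its size. The 8 tested genes outside the members with the highest correlation to the mean of the 4 chain genes, on values centred within groups over 10 libraries, were Adam23 (r = 0.977), Gm15851, 5830428M24Rik, Add3, Idua, Zbtb20, Grap2 and Mgl2 (r = 0.965). None passed the test in skin (lowest limma adjusted p 0.431, for Adam23). In HFSC Adam23 stayed at or below 3.0 and Mgl2, a lectin of dermal dendritic cells and macrophages, at or below 1.0 in each library, Zbtb20 was at 3762 to 4036 in control and 2395 to 2521 in eKO, and Grap2, an adaptor of T cells, at 0 to 7.0 and 11.4 to 52.6.

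The supporting genes of skin likewise gave few calls, beside 0.374% of all genes tested there. Of the 22 class II companion genes 19 passed the filter there and 1 rose, Ctsd (cathepsin D), at 282, 258, 230, 277 and 222 in control and at 526, 336, 437, 475 and 387 in eKO (log2 fold change 0.75 ± 0.14, limma adjusted p = 0.0466). The groups did not overlap, but the call was lost in 14 of 19 alternatives, among them both edgeR fits, the fit without control replicate 5 and eKO replicate 3 (whose Y-linked genes were near 0), and each fit that left out 1 library except that without eKO replicate 2. Ctss gave 1.03 (383 ± 233 against 683 ± 196, limma adjusted p = 0.296), Ctsl 0.72, Ctsb 0.58, Ctsc 0.57, Lgmn 0.38, Ifi30 0.35, Ctsh 0.32, Marchf1 0.16 and Marchf8 -0.14, and H2-Ob and H2-DMb2 gave 0.64 and 0.51, none past the threshold. The transcription factors Rfxank, Rfxap, Rfx5, Creb1, Nfya, Nfyb and Nfyc gave 0.42, -0.02, -0.18, -0.14, -0.01, -0.11 and -0.30, and none passed.

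No class I gene of 16 tested, no interferon gamma axis gene of 17 and no costimulatory gene of 7 passed in skin, beside 0.374% of all genes tested there. Of 36 tested leukocyte markers 34 had a positive log2 fold change, with a median of 0.57 beside 5.91e-05 over all tested genes, and 1 passed, Mfge8 (639 to 962 in control, 1517 to 2322 in eKO, limma adjusted p = 0.00960). Mfge8 was also at 849 to 964 in the separately normalised HFSC libraries, where the other Langerhans markers summed to at most 32.6, so it does not single out leukocytes here. The pan-leukocyte sum ran from 1081 to 5040 in control and from 3536 to 4362 in eKO skin, so the groups overlapped. The call of Mfge8 was lost without control replicate 5 and eKO replicate 3 and under a required 1.5-fold change. The class II members had a median log2 fold change of 0.30 beside these values, with no member past the test.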

How the data were processed

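The authors deposited 1 table per tissue, with 16 columns in all, each used here. Per the file headers and the values, the deposited signal is gene reads divided by 1 size factor per library: whole reads were recovered within a tolerance of 0.01 for 100% of nonzero values. The submitters' processing notes name GRCm39 for both tissues and, for skin, featureCounts and DESeq2, without saying what each did; the aligner, the strand setting and the handling of multi-mapping reads are not given in the sources used here. Rows were named by Ensembl identifier through the GENCODE M21 name list and RefSeq synonyms, and no coordinates were joined across builds.

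The members and gene lists were chosen with earlier results of these data known. Each tissue was fitted apart with limma 3.58.1 (R 4.3.3, trended prior) on log2(value + 1). Tested genes had to reach 10 in at least 5 skin or 3 HFSC libraries (16589 and 13784 genes), p-values were adjusted by Benjamini-Hochberg over all of them, and the threshold was 0.05. This scale understates changes of low genes. The fits were tested on simulated data. Alternatives were edgeR 4.0.16 and DESeq2 1.42.0 on the recovered reads, other pseudocounts, no filter, a required 1.5-fold change, a replicate block, a hair matrix covariate, and leaving out libraries. Correlations over libraries used 100000 permutations, two-sided. No pair of replicates agreed within sampling noise (chi-square per degree of freedom at least 5.62).

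Genes named are all members, each class II companion gene that passed the filter, the 3 largest called changes of the costimulation, class I and interferon gamma lists, the first markers of each cell list, and the 8 genes most like the chain genes in skin; others were named after their values were seen.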

Additional observations from a re-analysis of the deposited data

Results flagged for a closer look

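Among the members and class II companion genes of skin, 52 groups of 5 libraries were examined for a library apart from the rest, and 2 were found; chance alone flags about 1 group in 20. H2-DMb2 in control skin was lowest in replicate 4, at 43.87, where the nearest library had 91.9, and this is the library in which all 7 members were lowest too. Ctsh (cathepsin H) in eKO skin was highest in replicate 5, at 2118, where the nearest library had 1545.

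Ctsl (cathepsin L) differed in opposite directions between the tissues: each eKO library of HFSC lay below the control mean (log2 fold change -0.289) and each eKO library of skin above it (log2 fold change 0.72). Neither value passed the threshold, and the difference between the tissues was not tested.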

How the results depend on the processing

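No member passed in skin under any of 19 alternatives (lowest adjusted p 0.342, for Cd74). The direction of the members' skin values held except for Ciita, at -0.0661 without control replicate 4 and up to 0.4512 with another library left out. The HFSC members kept their direction in all 14 alternatives, with Cd74 between 2.67 and 3.11. Counts depended on the method. Genes called in skin numbered 62 by limma, 656 by DESeq2, 31 by edgeR with library size only, 149 with the hair matrix covariate, 37 without a filter, 0 with a required 1.5-fold change (232 at an unadjusted p under 0.05), 0 without the libraries low in Y-linked genes, and 11 to 59 with 1 library left out. In HFSC 2673 genes were called, 451 with a required 1.5-fold change and 1540 to 2643 with 1 library left out. With that required change the HFSC calls were 1 companion, 1 class I, 1 interferon gamma and 0 leukocyte genes; edgeR with TMM, edgeR with library size only and the fit without a filter also gave 0 leukocyte genes. The companion count in skin was 2 by DESeq2 and 0 by both edgeR fits, the required change, no filter and without the libraries low in Y-linked genes. With 1 library left out, the counts were 0 to 1 (companion, skin), 4 to 5 (companion, HFSC), 5 to 7 (class I), 4 to 7 (interferon gamma) and 0 to 1 (leukocyte), and the correlation of class II with leukocyte level ran from 0.377 to 0.870. The cause of these differences was not tested. Same-numbered HFSC libraries did not deviate together (r of -0.06, -0.02 and -0.03), and the labels state no pairing. These r do not settle whether libraries shared a litter or day. With the replicate block 2696 genes were called in HFSC, and skin labels carry no pairing. Ciita in HFSC is limited by depth to the 3-read limit given with it.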
